A study of Mus musculus and Homo sapiens with 24 samples.

Results

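The genes described here are 10 regulators of alternative splicing known from muscle: RBFOX1, RBFOX2, MBNL1, MBNL2, MBNL3, CELF1, CELF2, PTBP1, PTBP2 and RBM24. They were taken by gene symbol, ignoring case, and each was found once among the 56748 gene rows of the mouse line C2C12 and once among the 58735 gene rows of the human line LHCN-M2. All 10 passed the filter on low counts in both lines, where 17065 mouse and 18214 human genes were tested. In C2C12, Rbm24 and Rbfox1 passed only through their day 6 libraries.

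The study followed differentiation of these established skeletal myoblast lines by RNA-seq of polyadenylated RNA. Each of 6 groups had 4 libraries. C2C12 was sampled on days 0, 1 and 6 of differentiation, LHCN-M2 on days 0, 1 and 12. LHCN-M2 cells carry introduced TERT and CDK4 genes, and every sample of both lines has the genotype label control. The labels name no medium or agent. Nor do they tell whether the 4 libraries of a group came from separate cultures, and the p-values below refer to the variation among libraries, which may be technical.

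Splicing regulators bind short motifs in a primary transcript and raise or lower the use of nearby exons, often by where they bind relative to the exon. RBFOX, MBNL and RBM24 proteins are known for promoting exons of mature muscle, whereas PTBP1 is known as a repressor of tissue-specific exons and CELF proteins as antagonists of MBNL proteins on shared targets. Loss of free MBNL protein and excess of CELF1 are hallmarks of myotonic dystrophy. Gene counts measure the RNA of each regulator and not its protein, its own isoforms or the splicing of its targets.

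Levels are CPM, the counts of a gene scaled to the library total, and levels of different genes were compared only as CPM per kb of exon, with the gene length given in the deposited tables. The C2C12 libraries held 32795699 to 43827517 counts and the LHCN-M2 libraries 33030258 to 48546621. In C2C12, 12 myoblast and myotube markers summed to 265.5 to 280.9 CPM on day 0 and 3000.2 to 3178 CPM on day 6. In LHCN-M2 they summed to 1832 to 2350 CPM on day 0 and 14255 to 15371 CPM on day 12. In C2C12, 12 of 12 were higher on day 6 than on day 0. In LHCN-M2, 11 of 12 were higher on day 12 than on day 0 and 1 was lower, MYF5, from 268.4 to 14.2 CPM. Myogenin, MYOG, and the fusion gene MYMK were at 0 counts in LHCN-M2 on day 0. In LHCN-M2, 6 proliferation markers summed to 920 to 1293 CPM on day 0, 93.9 to 115.4 on day 1 and 202 to 225 on day 12. In C2C12 the same sum was 1652 to 1673, 1156 to 1234 and 1822 to 2000 CPM on days 0, 1 and 6, so day 6 lay above day 0. Of 7 fibroblast markers the sum was 10499 to 10870 CPM on day 0 and 24174 to 25182 CPM on day 12 in LHCN-M2, with 6 higher and 1 lower of 7 tested, and 14384 to 16809 and 10657 to 11132 CPM at days 0 and 6 in C2C12, with 2 higher and 3 lower of 6. The 2 higher ones in C2C12 were Dcn, from 9.90 to 287.6 CPM, and Lum, from 0.015 to 9.21 CPM, against the direction of the sum. The sum of 10 neural markers was 332 to 369 CPM on day 0 and 834 to 903 CPM on day 6 in C2C12. Of 8 tested, 5 were higher on day 6 and 1 was lower, Syt1, from 61.0 to 1.60 CPM. Dcx was at 0 counts on day 0 and Snap25 on day 6. In LHCN-M2 the sum lay between 42.1 and 54.9 CPM in every library. There 2 of 9 tested were higher and 4 lower on day 12 than on day 0. Of 5 smooth muscle markers, 4 were tested in each line. Their sum was 1609 to 1761, 2418 to 3106 and 1335 to 1533 CPM on days 0, 1 and 6 in C2C12, with 4 lower on day 6 than on day 0, and 234 to 381, 355 to 387 and 781 to 857 CPM on days 0, 1 and 12 in LHCN-M2, with 3 higher on day 12. The sum of 5 adipocyte markers went from 125.3 to 143.4 CPM on day 0 to 42.9 to 51.0 CPM on day 6 in C2C12 (3 of 3 tested lower) and was 4.80 to 9.30 and 1.34 to 2.34 CPM on days 0 and 12 in LHCN-M2 (2 of 2 lower), with LPL and ADIPOQ at 0 counts. Immune and endothelial markers summed to 12.3 CPM or less in every C2C12 library and 20.6 CPM or less in every LHCN-M2 library. In LHCN-M2, 2 of 6 tested were higher on day 12 than on day 0 and 1 was lower. In C2C12, 1 of 2 tested was lower on day 6 than on day 0 and 0 were higher. Whether any of these marker changes takes part in the results below was not tested, and in such bulk samples fewer cells of a type and less RNA per cell cannot be told apart. A pair of LHCN-M2 libraries stood apart from their groups on the third principal component: replicate 2 of day 0, at -71.5 against 17.8 to 30.2, and replicate 1 of day 12, at -22.8 against 5.08 to 9.31. Results of LHCN-M2 were also computed without that pair, and calls that changed are given below; for no other of the 10 genes did a call change.

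RBM24 rose in both lines. In C2C12 on day 6 its absolute log2 fold change was larger than that of 99.3% of all genes tested. In LHCN-M2 on day 12 that share was 83.2%. The C2C12 share rests on 8 counts summed over the day 0 libraries, in a gene that passed the filter only through day 6. RBM24 is a muscle and heart RNA-binding protein whose loss impairs sarcomere assembly. The human gene lies on the plus strand of chromosome 6 from 17281346 to 17293875 (GRCh38, whole gene, as deposited). For mouse Rbm24, RefSeq gives a promoter on GRCm38.p6, and the 250 bases before the gene start, chr13:46418050-46418299 on the plus strand, are printed because of the 10 genes this one had the largest fold change in C2C12; capitals mark E-boxes, the CANNTG motif that MyoD-family factors bind.

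Rbm24: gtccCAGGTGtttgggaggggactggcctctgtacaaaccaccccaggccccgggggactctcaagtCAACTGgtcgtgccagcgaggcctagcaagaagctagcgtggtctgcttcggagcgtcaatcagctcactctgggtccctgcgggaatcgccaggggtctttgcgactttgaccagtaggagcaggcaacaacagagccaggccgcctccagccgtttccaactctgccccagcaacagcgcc

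The window holds the E-boxes CAGGTG and CAACTG. An E-box CANNTG, searched on both strands, occurred in 66.2% of 32851 mouse RefSeq promoter windows of this length. Which factors bind these E-boxes, or those printed below, was not tested.

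In C2C12 on day 0, Rbm24 had 2, 4, 0 and 2 counts in the 4 libraries, and on day 1 it had 8, 8, 8 and 14. On day 6 it had 447, 287, 348 and 377 counts, or 10.8, 8.69, 9.48 and 9.14 CPM. All day 6 libraries lay above all earlier ones, and day 1 lay above day 0 without overlap. Scaled by library size, the summed counts of day 6 were 172.3 times those of day 0 (95% interval 87.2 to 400.0, for counting error only). The fitted log2 fold change was 7.34 (SE 0.35, adjusted p = 1.36e-13), and that from day 0 to day 1 was 1.96 (SE 0.50, adjusted p = 0.00249), or 2.58 without replicate 2 of day 0. Rbm24 entered the C2C12 tests only through its day 6 libraries, so its p-values for day 6 are descriptions.

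In LHCN-M2, RBM24 was already well above the detection limit on day 0, at 46.4, 35.2, 44.8 and 42.9 CPM. It stood at 86.7, 79.5, 90.2 and 78.6 CPM on day 1 and at 117.1, 124.0, 124.6 and 120.6 CPM on day 12. The 3 days did not overlap, and each step was upward: the log2 fold change was 0.99 (SE 0.089, adjusted p = 2.70e-07) over the first day and 0.54 (SE 0.088, adjusted p = 0.000175) from day 1 to day 12. From day 0 to day 12 the level rose 2.87-fold (log2 1.52, SE 0.090, adjusted p = 1.48e-09). The rise to the last day was smaller in LHCN-M2 than in C2C12 by 5.65 on the log2 scale (SE 0.30, adjusted p = 2.24e-14). Without replicate 2 of C2C12 day 0 the difference was 6.26 (adjusted p = 8.25e-14). Because Rbm24 entered the C2C12 tests only through day 6, the p-values of this difference are descriptions too.

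**Figure D1:**
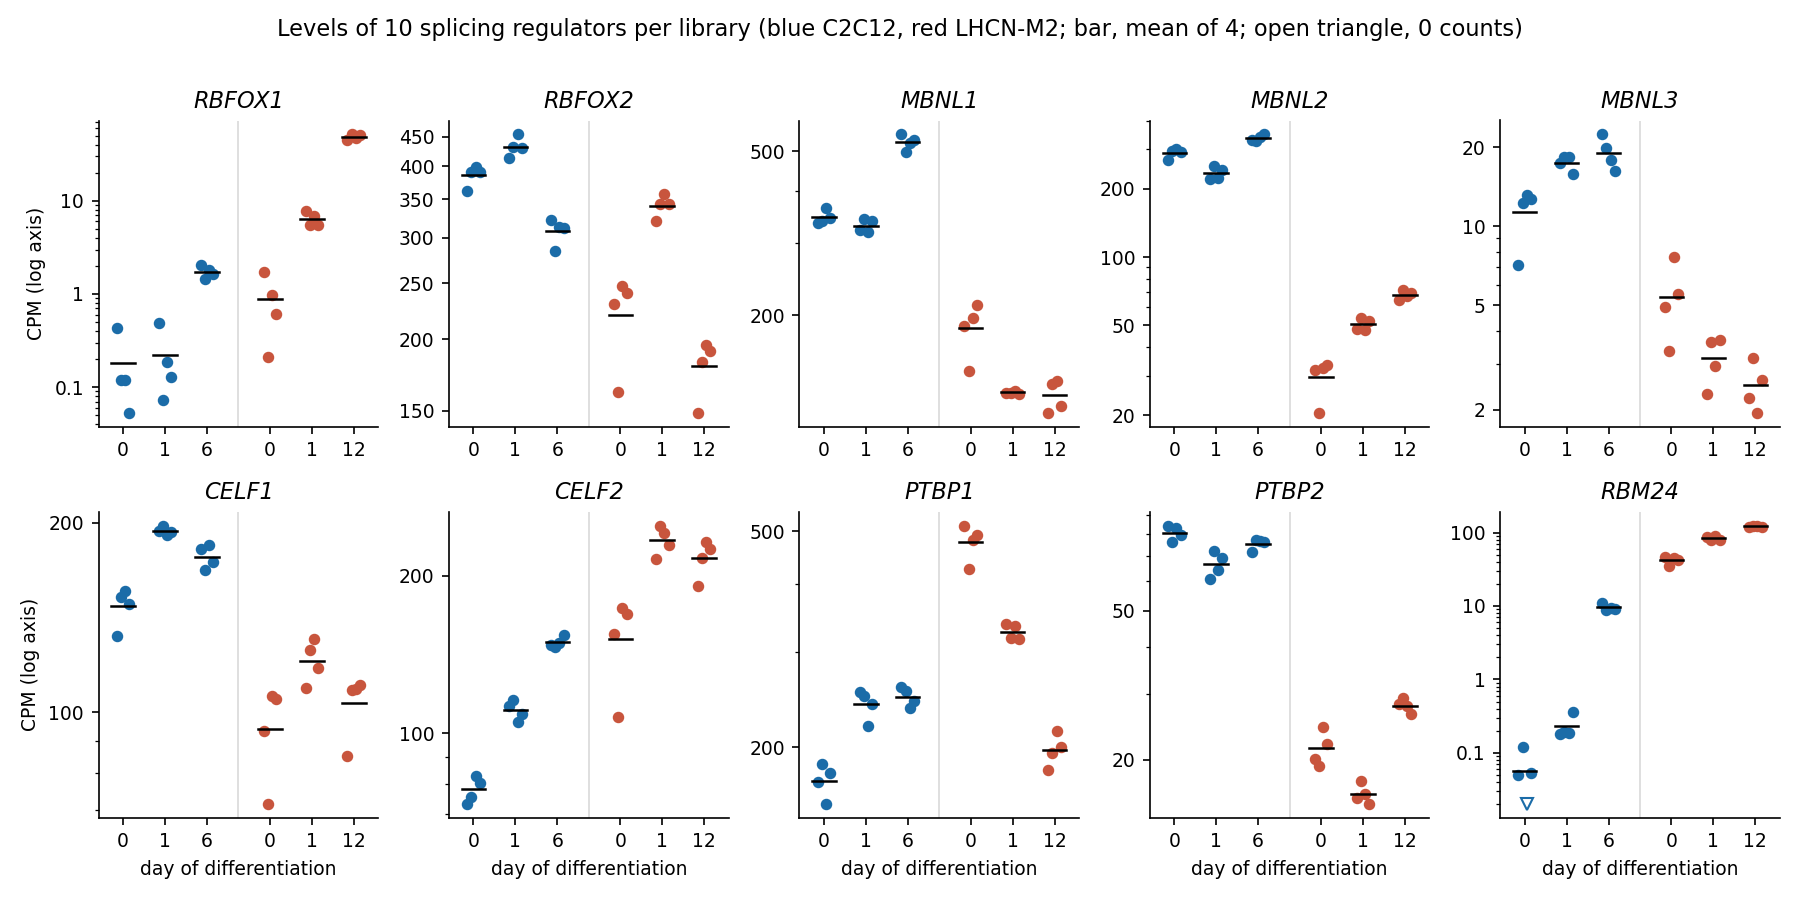
CPM of each gene in each library on a log axis, by day, with C2C12 in blue and LHCN-M2 in red; bars are means of 4 libraries and the open triangle is the 1 library with 0 counts. RBM24 and RBFOX1 end far above day 0, PTBP1 rises in the blue groups and falls in the red ones, and the levels of the lines are not comparable because their reads were mapped to different genomes.

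RBFOX1 rose in both lines by the last day, whereas RBFOX2 rose over the first day and then fell. The RBFOX proteins share an RNA-binding domain for the motif UGCAUG. RBFOX1 is the form of muscle, heart and neurons, and RBFOX2 is expressed more widely. Human RBFOX1 lies on chromosome 16 from 5239802 to 7713338 (plus strand) and RBFOX2 on chromosome 22 from 35738736 to 36028425 (minus strand). RefSeq gives mouse Rbfox1 more than 1 start, and the window before the inner start, chr16:7069585-7069834 on the plus strand of GRCm38.p6, is printed because it alone among the 15 windows of the 9 genes matched holds the E-box CAGCTG.

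Rbfox1: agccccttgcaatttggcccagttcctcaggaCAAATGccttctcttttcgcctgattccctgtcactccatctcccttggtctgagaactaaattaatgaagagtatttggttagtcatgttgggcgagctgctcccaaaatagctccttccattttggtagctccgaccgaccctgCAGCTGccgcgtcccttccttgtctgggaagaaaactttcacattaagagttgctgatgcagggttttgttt

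Capitals again mark E-boxes, here CAAATG and CAGCTG. The letters CAGCTG occurred in 13% of all promoter windows, and any E-box in 8 of the 15 windows of these genes. The MEF2 element, the binding motif of MEF2 factors, occurred in 0 of these 15 windows and in 2.92% of all windows.

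In C2C12, Rbfox1 was near the detection limit at first, with 17, 4, 4 and 2 counts on day 0 and 22, 3, 8 and 5 on day 1. On day 6 it had 84, 48, 67 and 67 counts, or 2.04, 1.45, 1.83 and 1.62 CPM. The days 0 and 1 overlapped (log2 fold change 0.26, SE 0.62, adjusted p = 0.754), and day 6 lay above both. The log2 fold change from day 0 to day 6 was 3.22 (SE 0.58, adjusted p = 5.96e-05). Rbfox1 too entered the C2C12 tests only through its day 6 libraries, so its p-values for day 6 are descriptions. Replicate 1 was the highest library at days 0, 1 and 6, and without replicate 1 of day 0 the fold change was 4.12.

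In LHCN-M2, RBFOX1 stood at 1.73, 0.212, 0.981 and 0.608 CPM on day 0. It reached 7.75, 5.52, 6.83 and 5.51 CPM on day 1 and 44.7, 51.5, 47.5 and 50.7 CPM on day 12. The days did not overlap, and both steps were of like size, with log2 fold changes of 2.87 (SE 0.32, adjusted p = 3.20e-06) and 2.92 (SE 0.27, adjusted p = 6.83e-07). From day 0 to day 12 the rise was 55.3-fold (log2 5.79, SE 0.33, adjusted p = 1.15e-09). It was larger in LHCN-M2 than in C2C12 by 2.76 on the log2 scale (SE 0.76, adjusted p = 0.00234), but that difference was 1.81 with adjusted p = 0.117 without replicate 1 of C2C12 day 0. The first-day difference of 2.71 (SE 0.82, adjusted p = 0.00652) was likewise lost without that library, at 1.75 (adjusted p = 0.163), and was 3.46 (adjusted p = 0.00132) without replicate 1 of C2C12 day 1. Because Rbfox1 entered the C2C12 tests only through day 6, the p-values of its last-day difference are descriptions.

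RBFOX2 had its highest levels on day 1 in both lines. In C2C12 it stood at 362.6 to 398.1 CPM on day 0, 412.8 to 454.2 on day 1 and 284.2 to 322.9 on day 6. The 3 ranges did not overlap: the log2 fold change was 0.17 (SE 0.051, adjusted p = 0.0101) over the first day and -0.32 (SE 0.051, adjusted p = 1.22e-05) from day 0 to day 6. In LHCN-M2 it stood at 230.5, 161.7, 247.3 and 240.6 CPM on day 0, at 321.6 to 357.4 on day 1, and at 148.8, 182.4, 195.3 and 190.6 on day 12. The first-day rise was 0.63 (SE 0.12, adjusted p = 0.000490), and the fall from day 1 to day 12 was -0.93 (SE 0.12, adjusted p = 2.23e-05).

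Between day 0 and day 12, RBFOX2 missed the threshold of 0.05 in LHCN-M2 (log2 fold change -0.30, SE 0.12, adjusted p = 0.05004), and the lowest day 0 library lay within the day 12 range. That library is 1 of the pair that stood apart, and without the pair the fold change was -0.31 with adjusted p = 2.01e-05. The first-day rise was larger in LHCN-M2 by 0.57 (SE 0.14, adjusted p = 0.00120).

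The RBFOX1 to RBFOX2 ratio, as counts per kb, rose in both lines. Its geometric mean went from 0.00073 on day 0 to 0.0104 on day 6 in C2C12, and from 0.0032 on day 0 to 0.0184 on day 1 and 0.269 on day 12 in LHCN-M2. In both lines the libraries of the first and last day did not overlap (exact permutation test, p = 0.0286, the smallest that 4 against 4 can give; adjusted p = 0.0390 over 30 ratio comparisons). RBFOX2 thus remained the more abundant RNA of the pair in every library. In C2C12, Rbfox1 passed the filter only through day 6, so the p-value of the ratio there is a description.

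Of the muscleblind-like genes, MBNL2 rose in both lines by the last day, while MBNL1 and MBNL3 rose in C2C12 and fell in LHCN-M2. MBNL1 and MBNL2 are the main muscleblind proteins of adult tissues and MBNL3 is known from proliferating muscle precursors. Human MBNL1 lies on chromosome 3 from 152243828 to 152465780 (plus strand), MBNL2 on chromosome 13 from 97221434 to 97394120 (plus) and MBNL3 on chromosome X from 132369317 to 132489968 (minus).

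In C2C12, Mbnl1 stood at 334.9, 338.4, 364.4 and 343.9 CPM on day 0 and at 321.3, 341.3, 317.6 and 338.5 on day 1. It reached 548.4, 497.2, 523.7 and 531.7 CPM on day 6. The first 2 days overlapped and day 6 lay above both, with a log2 fold change from day 0 of 0.60 (SE 0.048, adjusted p = 5.64e-10). In LHCN-M2, MBNL1 went the other way, from 188.6, 146.4, 197.1 and 212.0 CPM on day 0 to 130.0, 130.0, 131.4 and 129.3 on day 1 and 116.2, 136.1, 138.6 and 121.0 on day 12. Its fall was complete on day 1 (log2 fold change -0.51, SE 0.10, adjusted p = 0.000611), and days 1 and 12 overlapped (-0.025, SE 0.10, adjusted p = 0.872). The change to the last day differed between the lines by -0.97 (SE 0.12, adjusted p = 6.74e-08).

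The rise of MBNL2 was larger in LHCN-M2, where it stood at 31.7, 20.5, 32.5 and 33.4 CPM on day 0, at 48.4, 54.0, 47.6 and 52.1 on day 1 and at 64.5, 71.2, 67.3 and 69.7 on day 12. The 3 days did not overlap, and the log2 fold change from day 0 to day 12 was 1.21 (SE 0.13, adjusted p = 9.57e-07). In C2C12, Mbnl2 first fell from 268.1 to 298.4 CPM to 221.8 to 252.5 CPM (change of -0.29 on the log2 scale, SE 0.053, adjusted p = 0.000108), and then rose to 323.7 to 347.4 CPM on day 6. Its net rise over day 0 was 0.22 (SE 0.053, adjusted p = 0.00119). The lines differed by 1.17 over the first day (SE 0.14, adjusted p = 1.26e-07) and by 1.16 to the last day (SE 0.14, adjusted p = 8.66e-08).

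MBNL3 was the least abundant of the family and was called in opposite directions in the 2 lines. In C2C12 it stood at 7.12, 12.2, 13.2 and 12.8 CPM on day 0, at 15.9 to 18.3 on day 1 and at 16.2 to 22.4 on day 6. The rise to day 6 had a log2 fold change of 0.76 (SE 0.15, adjusted p = 0.000111). In LHCN-M2 it stood at 4.95, 3.34, 7.61 and 5.54 CPM on day 0, at 2.29, 3.63, 2.95 and 3.69 on day 1 and at 2.22, 3.15, 1.95 and 2.59 on day 12, a change of -1.12 (SE 0.25, adjusted p = 0.00141). The first-day fall of -0.77 (SE 0.24, adjusted p = 0.0171) passed with all libraries but not when replicate 3 of day 0 (adjusted p = 0.0747), replicate 1 of day 1 (0.0568) or replicate 3 of day 1 (0.0551) was left out. RAP2C-AS1, annotated on the opposite strand and overlapping MBNL3, had 1231 counts in LHCN-M2, or 68.8% of the 1788 of MBNL3. It stood at 1.82 ± 0.30 CPM on day 0 and 3.40 ± 1.35 on day 12 (SD, n = 4). How many of its counts fall in the overlap is not known. The strand setting of the counting is not given in the sources used here, so reads of the overlapping pair cannot be told apart. The changes of MBNL3 to the last day differed by -1.70 between the lines (SE 0.31, adjusted p = 2.74e-05).

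Within the family, the MBNL2 to MBNL1 ratio per kb rose in LHCN-M2 and fell in C2C12. In LHCN-M2 the geometric mean went from 0.32 on day 0 to 0.789 on day 1 and 1.09 on day 12. MBNL2 RNA thus drew level with MBNL1 RNA, on the deposited gene lengths. In C2C12 the ratio went from 1.3 to 1.11 and to 0.994. The first and last days did not overlap in either line (exact permutation test, p = 0.0286, adjusted p = 0.0390).

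**Figure D2:**
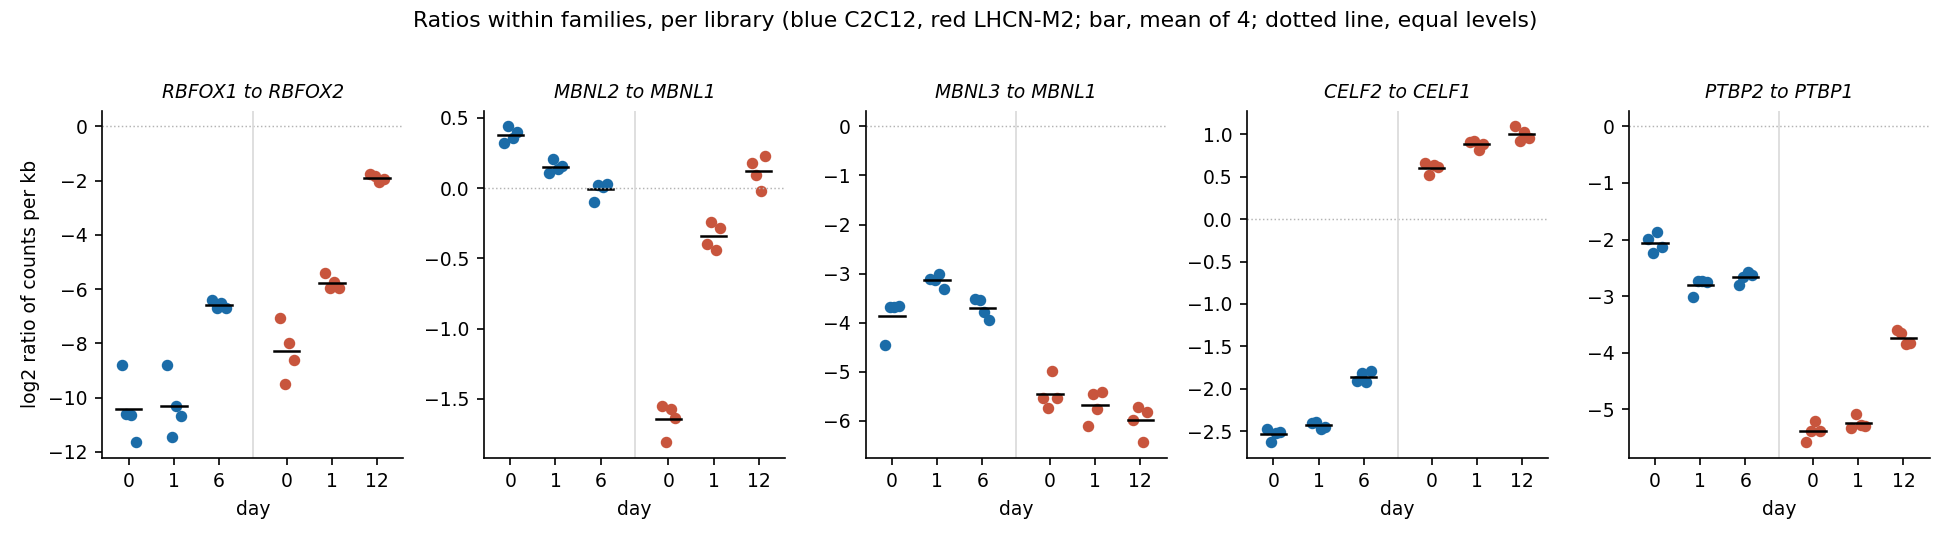
Log2 ratio of counts per kb for 5 pairs within families, 1 point per library, by day in C2C12 (blue) and LHCN-M2 (red), with means of 4 as bars and a dotted line at equal levels. RBFOX1 to RBFOX2 and CELF2 to CELF1 rise in both lines, whereas MBNL2 to MBNL1 and PTBP2 to PTBP1 end higher in LHCN-M2 and lower in C2C12 than on day 0.

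CELF2 rose in both lines, and CELF1 rose over the first day and was called higher at the last day in C2C12 alone. CELF1 and CELF2 bind GU-rich elements and are known to fall in protein level as heart and muscle mature. Human CELF1 lies on chromosome 11 from 47465933 to 47565569 (minus strand) and CELF2 on chromosome 10 from 10798397 to 11336675 (plus). In C2C12, Celf2 stood at 73.3 to 83.1 CPM on day 0, 105.3 to 115.9 on day 1 and 146.5 to 154.3 on day 6, with no overlap between days. Its log2 fold change to day 6 was 0.94 (SE 0.054, adjusted p = 3.09e-12). In LHCN-M2, CELF2 stood at 154.9, 107.5, 173.7 and 169.4 CPM on day 0, at 215.8 to 249.7 on day 1 and at 190.9 to 232.4 on day 12. The rise was made by day 1 (0.63, SE 0.12, adjusted p = 0.000679), days 1 and 12 overlapped, and day 12 was higher than day 0 by 0.51 (SE 0.12, adjusted p = 0.00259).

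From day 1 to the last day the lines differed for CELF2 by -0.48 (SE 0.14, adjusted p = 0.00694), with a further rise in C2C12 of 0.43 (SE 0.053, adjusted p = 4.36e-07) and a value of -0.11 (SE 0.12, adjusted p = 0.505) in LHCN-M2. From day 0 to the last day the difference was -0.25 (SE 0.14, adjusted p = 0.127), and -0.36 with adjusted p = 0.000303 without the pair of libraries that stood apart.

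Celf1 rose from 132.4 to 155.7 CPM on day 0 to 191.2 to 198.2 CPM on day 1 in C2C12 (log2 fold change 0.40, SE 0.054, adjusted p = 3.49e-06) and was 168.1 to 184.5 CPM on day 6, still above day 0 (0.26, SE 0.055, adjusted p = 0.000241). In LHCN-M2 it stood at 71.5 to 106.3 CPM on day 0, 109.4 to 130.7 on day 1 and 85.3 to 110.6 on day 12. The first-day rise of 0.36 (SE 0.12, adjusted p = 0.0235) just missed the threshold when replicate 1 of day 0 (adjusted p = 0.0518), replicate 2 of day 1 (0.0598) or replicate 3 of day 1 (0.0555) was left out. Days 0 and 12 overlapped (0.13, SE 0.12, adjusted p = 0.370). From day 1 to day 12 the value was -0.23 (SE 0.12, adjusted p = 0.157), and it passed without replicate 2 of day 0 (-0.24, adjusted p = 0.0200). NDUFS3, on the opposite strand and overlapping human CELF1, had 25004 counts beside 52661 of CELF1, at 56.1 ± 21.6, 49.1 ± 3.04 and 47.3 ± 7.72 CPM (SD, n = 4) on days 0, 1 and 12.

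Between the first and last day the CELF2 to CELF1 ratio per kb rose from 0.173 to 0.276 in C2C12, and in LHCN-M2 from 1.52 to 2.00 (exact permutation test, p = 0.0286, adjusted p = 0.0390 for both). CELF1 RNA was thus the more abundant in C2C12 and CELF2 RNA in LHCN-M2, on the deposited gene lengths.

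PTBP1, the polypyrimidine tract binding protein, fell in LHCN-M2 and rose in C2C12. PTBP1 represses many muscle and neuronal exons, and it also represses PTBP2, its paralog of neurons, through an exon whose skipping destabilises the PTBP2 transcript. Human PTBP1 lies on chromosome 19 from 797075 to 812327 (plus strand) and PTBP2 on chromosome 1 from 96721665 to 96823738 (plus). The mouse Ptbp1 window, chr10:79854182-79854431 on the plus strand of GRCm38.p6, is printed because this gene moved in opposite directions; its E-boxes are CAGATG and CACGTG.

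Ptbp1: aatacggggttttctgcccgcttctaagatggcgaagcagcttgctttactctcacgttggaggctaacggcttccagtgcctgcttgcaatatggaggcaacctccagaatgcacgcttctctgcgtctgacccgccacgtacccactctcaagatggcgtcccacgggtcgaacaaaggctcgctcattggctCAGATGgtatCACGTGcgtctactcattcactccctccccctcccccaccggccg

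In LHCN-M2, PTBP1 stood at 512.6, 425.5, 481.6 and 492.7 CPM on day 0. It was 336.8, 317.6, 334.8 and 317.2 CPM on day 1 and 181.7, 194.8, 214.2 and 200 CPM on day 12. The days did not overlap and both steps were downward: the log2 fold change was -0.55 (SE 0.074, adjusted p = 1.96e-05) and then -0.72 (SE 0.074, adjusted p = 1.97e-06). From day 0 to day 12 PTBP1 was 2.42-fold lower (log2 -1.27, SE 0.075, adjusted p = 1.52e-09).

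In C2C12, Ptbp1 stood at 172.3, 185.8, 157.1 and 178.9 CPM on day 0, at 252.7, 248.8, 219.0 and 240.6 on day 1 and at 257.8, 254.0, 235.7 and 243.1 on day 6. Days 1 and 6 overlapped and both lay above day 0, with log2 fold changes of 0.47 (SE 0.059, adjusted p = 1.21e-06) and 0.51 (SE 0.059, adjusted p = 1.50e-07). The change to the last day differed between the lines by -1.61 (SE 0.097, adjusted p = 2.78e-13), and over the first day by -0.91 (SE 0.097, adjusted p = 1.54e-08). The sum of the proliferation markers was lower at the last day than on day 0 in LHCN-M2 and not in C2C12 (values above), as PTBP1 was. Over the first day in LHCN-M2 the sum and PTBP1 (-0.55) both fell. The C2C12 sum was lower on day 1 than on day 0 while Ptbp1 rose (0.47). In LHCN-M2 the sum was higher on day 12 than on day 1 while PTBP1 fell (-0.72). From day 1 to day 6 the C2C12 sum rose and Ptbp1 was not called (0.044). The markers' part in the result was not tested.

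PTBP2 fell over the first day in both lines and then rose. In LHCN-M2 it stood at 20.2, 19.3, 24.5 and 22.1 CPM on day 0, at 15.8, 17.6, 16.2 and 15.3 on day 1 and at 28.1, 29.2, 27.9 and 26.5 on day 12. The first step was -0.41 (SE 0.093, adjusted p = 0.00213) and the second 0.78 (SE 0.093, adjusted p = 8.67e-06), for a net rise of 0.38 (SE 0.092, adjusted p = 0.00289). In C2C12, Ptbp2 stood at 76.1 to 84.4 CPM on day 0, 60.7 to 72.3 on day 1 and 71.6 to 77.3 on day 6. Its first step was -0.28 (SE 0.061, adjusted p = 0.000611). The second, 0.18 (SE 0.061, adjusted p = 0.0144), rested on overlapping days and missed the threshold when any 1 of 10 of the 12 libraries was left out, with values of 0.091 to 0.15.

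Days 0 and 6 of Ptbp2 overlapped (-0.10, SE 0.061, adjusted p = 0.151). The lines differed in the change of PTBP2 to the last day by 0.65 (SE 0.11, adjusted p = 7.65e-06). The PTBP2 to PTBP1 ratio per kb rose in LHCN-M2 from 0.0239 on day 0 and 0.0264 on day 1 to 0.0753 on day 12, a 3.15-fold change, and fell in C2C12 from 0.241 on day 0 to 0.143 on day 1 and 0.157 on day 6. The first and last days did not overlap in either line (exact permutation test, p = 0.0286, adjusted p = 0.0390). PTBP1 RNA stayed above PTBP2 RNA in every library. In all, 22 of the 30 ratio comparisons reached that p, 11 in each line. The share among ratios of other genes is not given here, so these counts do not set the families apart.

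Counted over the 10 genes, 8 were called in C2C12 on day 1 against day 0 (50.3% of all genes tested), 6 of them higher (25.9% of all genes) and 2 lower (24.4%). On day 6 against day 0, 9 were called (65.6%), 8 higher (33.1%) and 1, Rbfox2, lower (32.5%). On day 6 against day 1, 8 were called (61.4%), 6 higher (32.8%) and 2, Rbfox2 and Celf1, lower (28.6%). The higher ones on day 6 include Rbm24 and Rbfox1 in both comparisons, and these passed the filter only through day 6. In LHCN-M2 all 10 were called on day 1 against day 0 (46.9%), 6 higher (23.4%) and 4 lower (23.5%). On day 12 against day 0, 8 were called (54.6%), 5 higher (27.1%) and 3, MBNL1, MBNL3 and PTBP1, lower (27.5%). On day 12 against day 1, 6 were called (39.8%), 4 higher (20.9%) and 2, RBFOX2 and PTBP1, lower (18.8%). The 4 libraries of each day did not overlap for 8, 9 and 7 of the genes in the C2C12 comparisons, in the same order, where they did not for 45.7%, 59.0% and 56.7% of all genes. For LHCN-M2 they did not overlap for 9, 8 and 6 of the genes, against 43.6%, 48.6% and 45.8%. Calls are thus frequent among all genes, and the median absolute log2 fold change of the 10 genes to the last day was 0.56 in C2C12 and 0.83 in LHCN-M2, beside 0.54 and 0.56 over all genes tested.

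**Figure D3:**
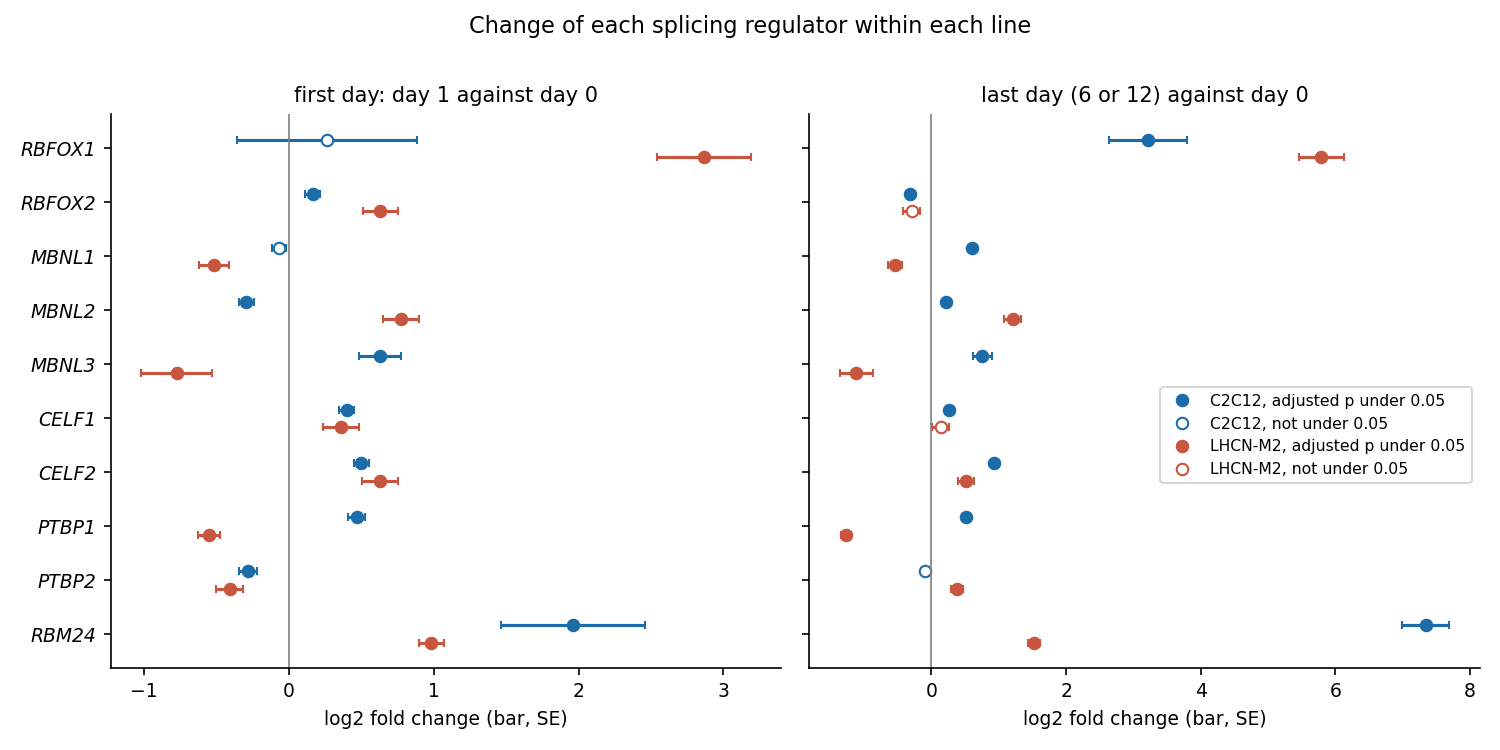
Log2 fold change of each gene with its SE over the first day (left) and to the last day (right), C2C12 in blue and LHCN-M2 in red; open points did not pass an adjusted p of 0.05. At the last day RBM24 and RBFOX1 lie to the right in both lines, while MBNL1, MBNL3 and PTBP1 lie on opposite sides of 0.

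The difference between the lines passed the test in 19 of 30 comparisons, 6 over the first day (59.2% of shared symbols), 7 to the last day from day 0 (70.7%) and 6 from day 1 (56.2%). These include RBM24 to the last day from days 0 and 1, and RBFOX1 from day 0. In C2C12 both genes passed the filter only through day 6, so those p-values are descriptions. Larger and smaller refer here to the sign of the LHCN-M2 change minus the C2C12 change, so a stronger fall in LHCN-M2 counts as smaller. MBNL1 over the first day is such a case, at -0.51 in LHCN-M2 and -0.067 in C2C12. Over the first day 3 changes were larger in LHCN-M2 (RBFOX1, RBFOX2, MBNL2) and 3 smaller (MBNL1, MBNL3, PTBP1), where 30.4% and 28.8% of 10953 shared symbols were. To the last day 3 were larger (RBFOX1, MBNL2, PTBP2) and 4 smaller (RBM24, MBNL1, MBNL3, PTBP1), against 37.2% and 33.5%. From day 1 to the last day 1 was larger (PTBP2) and 5 smaller (RBFOX2, MBNL1, CELF2, PTBP1, RBM24), against 30.1% and 26.1%. Scaling on the shared symbols moved these differences upward by a median of 0.10, 0.17 and 0.069 relative to the fits within the lines, less than any called difference. Days 6 and 12 are different times, so line and time cannot be told apart at the last day.

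Ordered by CPM per kb on the deposited gene lengths, the genes formed a different ranking in each line. In C2C12 on day 0 Rbfox2 led at 47.3 ± 1.92 (SD, n = 4), followed by Ptbp1 at 36.6 ± 2.59, Mbnl2 at 23.98 ± 1.12, Mbnl1 at 18.5 ± 0.70 and Celf1 at 17.4 ± 1.23. Ptbp2, Celf2 and Mbnl3 followed at 8.81, 3.02 and 1.30, and Rbfox1 and Rbm24 stood at 0.041 and 0.016. The ranges of Mbnl1 and Celf1 overlapped, as did those of Rbfox1 and Rbm24. At day 6 Ptbp1 led at 52.2 ± 2.13, above Rbfox2 at 37.9 ± 2.06; Mbnl1 and Mbnl2 overlapped at 28.1 and 27.9, Rbm24 had joined Mbnl3 at 2.73 and 2.18, and Rbfox1 was last at 0.394.

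In LHCN-M2 on day 0 PTBP1 led at 69.5 ± 5.43. RBFOX2, MBNL1, CELF2 and RBM24 followed at 22.0, 18.6, 13.8 and 12.3, each overlapping the next. CELF1, MBNL2, PTBP2, MBNL3 and RBFOX1 came below at 9.01, 6.02, 1.66, 0.439 and 0.087. At day 12 RBM24 led at 35.3 ± 1.00, above PTBP1 at 28.7 ± 1.95 without overlap, and RBFOX1 had passed PTBP2 and MBNL3, at 4.80 ± 0.31 against 2.16 ± 0.087 and 0.203 ± 0.043. CELF2 and RBFOX2 overlapped at 19.7 and 17.9, as did MBNL2 and MBNL1 at 13.9 and 12.8. The lead of RBM24 depends on the deposited gene lengths, 3444 bases for RBM24 and 6883 for PTBP1.

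**Figure D4:**
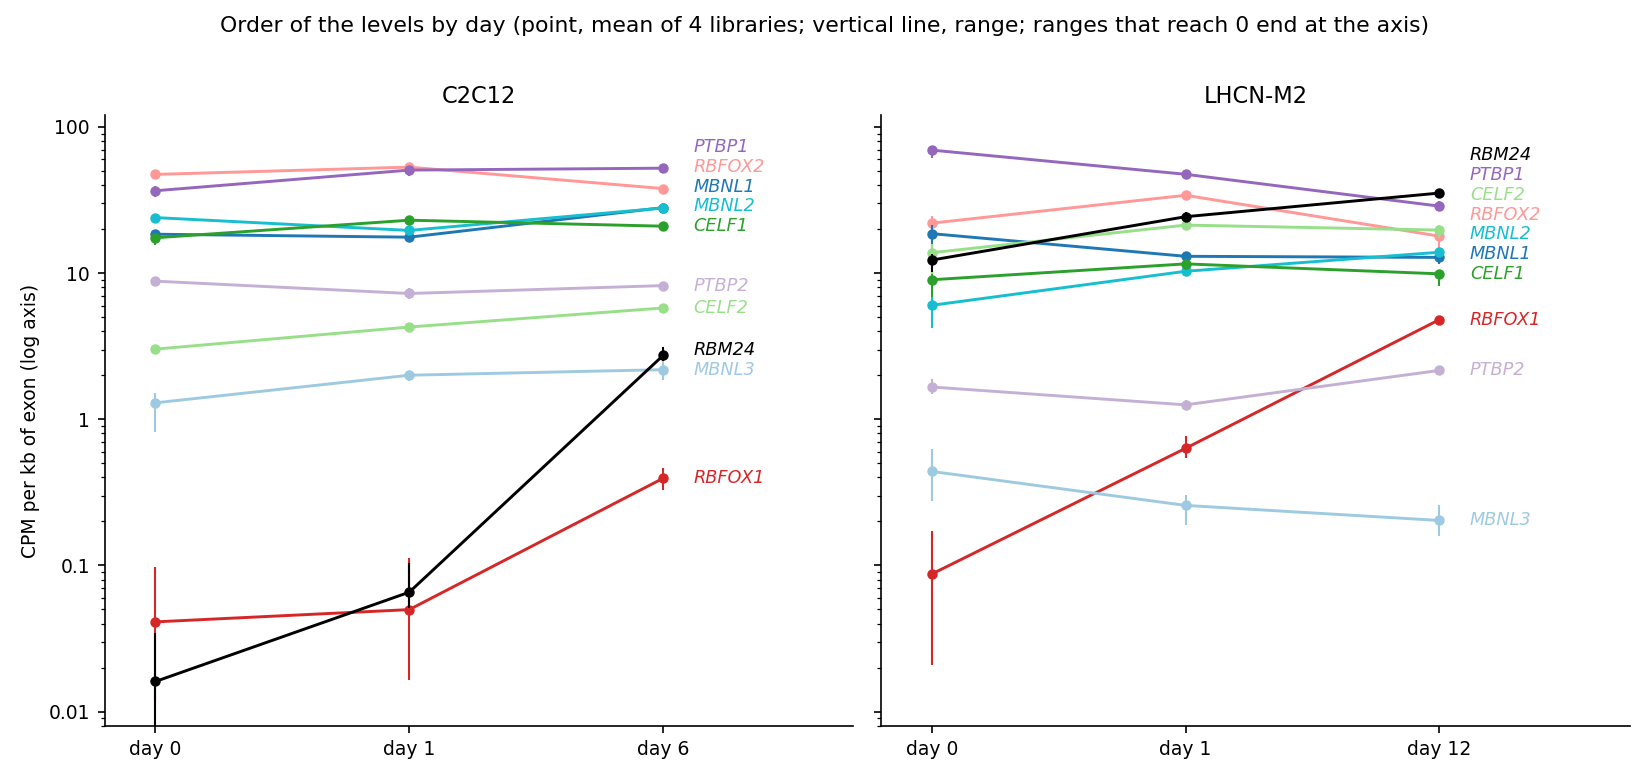
Mean CPM per kb of exon of each gene by day on a log axis, with the range over 4 libraries as a vertical line, in C2C12 (left) and LHCN-M2 (right). RBM24 climbs to the top of the order on day 12 in LHCN-M2 and to the 2.73 level on day 6 in C2C12, and PTBP1 goes from first to second place in LHCN-M2 and from second to first in C2C12. The order rests on the deposited gene lengths.

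The genes whose log2 CPM followed each regulator most closely in both lines were found among the 10953 shared symbols, over 12 libraries per line, by the smaller of the 2 correlations. The points share their days and libraries, so these values are descriptions. For RBM24 they were MYLPF, a fast myosin light chain (r = 0.99 in both lines), NEB, nebulin (0.99 in both), and IGFBP5 (0.99 in both). For RBFOX1 they were ACTN2, a Z-disc actinin (0.94 in C2C12 and 0.97 in LHCN-M2), MEF2C (0.93 and 0.98) and KCNJ12, an inward rectifier potassium channel (0.93 and 0.97). For RBFOX2 they were GLI3 (0.98 in both), BNC2 (0.98 and 0.97) and SUFU (0.96 and 0.98). The closest genes to PTBP1 were MAT2A (0.95 and 0.97), NEDD9 (0.94 and 0.96) and STRIP2 (0.95 and 0.94). MBNL3 had the weakest match, ATP2B1 at 0.85 and 0.89.

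Other splicing genes were read as lists, with counts and medians only, and differences between the lines were not tested for them. The median over all genes tested was -0.0096 in LHCN-M2 on day 12 and -0.028 in C2C12 on day 6, both against day 0. Of 21 hnRNP genes, whose proteins coat nascent transcripts, 20 were lower and 0 higher on day 12 than on day 0 in LHCN-M2, with HNRNPH2 the exception (log2 fold change 0.03, adjusted p = 0.793), and the list's median was -0.62 (of all genes, 27.1% were higher and 27.5% lower). HNRNPM fell from 319.6 to 130.2 CPM (-1.30, SE 0.12, adjusted p = 2.12e-07), HNRNPD from 263.4 to 110.0 CPM (-1.26, SE 0.086, adjusted p = 8.64e-09) and HNRNPA3 from 425.3 to 188.8 CPM (-1.17, SE 0.063, adjusted p = 5.55e-10). In C2C12 on day 6, 11 of the 21 were higher and 4 lower (Pcbp2, Hnrnpl, Hnrnpll and Hnrnpa1, chosen after their values were seen), with a median of 0.12, where 33.1% and 32.5% of all genes were. Hnrnpab rose from 246.5 to 392.8 CPM (0.67, SE 0.059, adjusted p = 2.60e-09), and Pcbp2 fell from 270.6 to 175.0 CPM (-0.63, SE 0.047, adjusted p = 1.91e-10).

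SR proteins are splicing factors that mostly promote exon inclusion. In LHCN-M2 on day 12, 9 of 12 tested were lower and 1, SRSF5, higher, with a median of -0.64 (all genes 27.5% and 27.1%). SRSF9 fell from 99.1 to 38.4 CPM (-1.37, SE 0.14, adjusted p = 1.12e-06) and SRSF2 from 155.0 to 70.5 CPM (-1.14, SE 0.083, adjusted p = 1.69e-08). In C2C12 on day 6, 7 of 12 were higher and 2, Srsf9 and Srsf5, lower, with a median of 0.35 (all genes 33.1% and 32.5%). Srsf3 rose from 273.6 to 447.5 CPM (0.71, SE 0.051, adjusted p = 9.65e-11) and Tra2b from 116.4 to 187.6 CPM (0.69, SE 0.052, adjusted p = 2.59e-10).

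Of the 7 kinases that phosphorylate SR proteins, the muscle kinase SRPK3, a known target of MEF2 factors, rose in both lines. It went from 3.73 to 31.9 and 73.7 CPM at days 0, 1 and 12 in LHCN-M2 (log2 fold change to day 12 4.30, SE 0.15, adjusted p = 4.44e-12) and from 0.079 to 0.339 and 9.17 CPM at days 0, 1 and 6 in C2C12 (6.84, SE 0.40, adjusted p = 3.50e-12; 7.55 without replicate 3 of day 0). The day 0 mean of Srpk3 in C2C12 lay below the filter level of about 0.257 CPM, so its p-value there is a description. Clk1 fell from 221.7 to 124.4 CPM in C2C12 (-0.83, SE 0.055, adjusted p = 2.75e-11). In all, 2 kinases were higher and 5 lower in C2C12 (all genes 33.1% and 32.5%) and 4 higher and 3 lower in LHCN-M2 (27.1% and 27.5%).

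**Figure D5:**
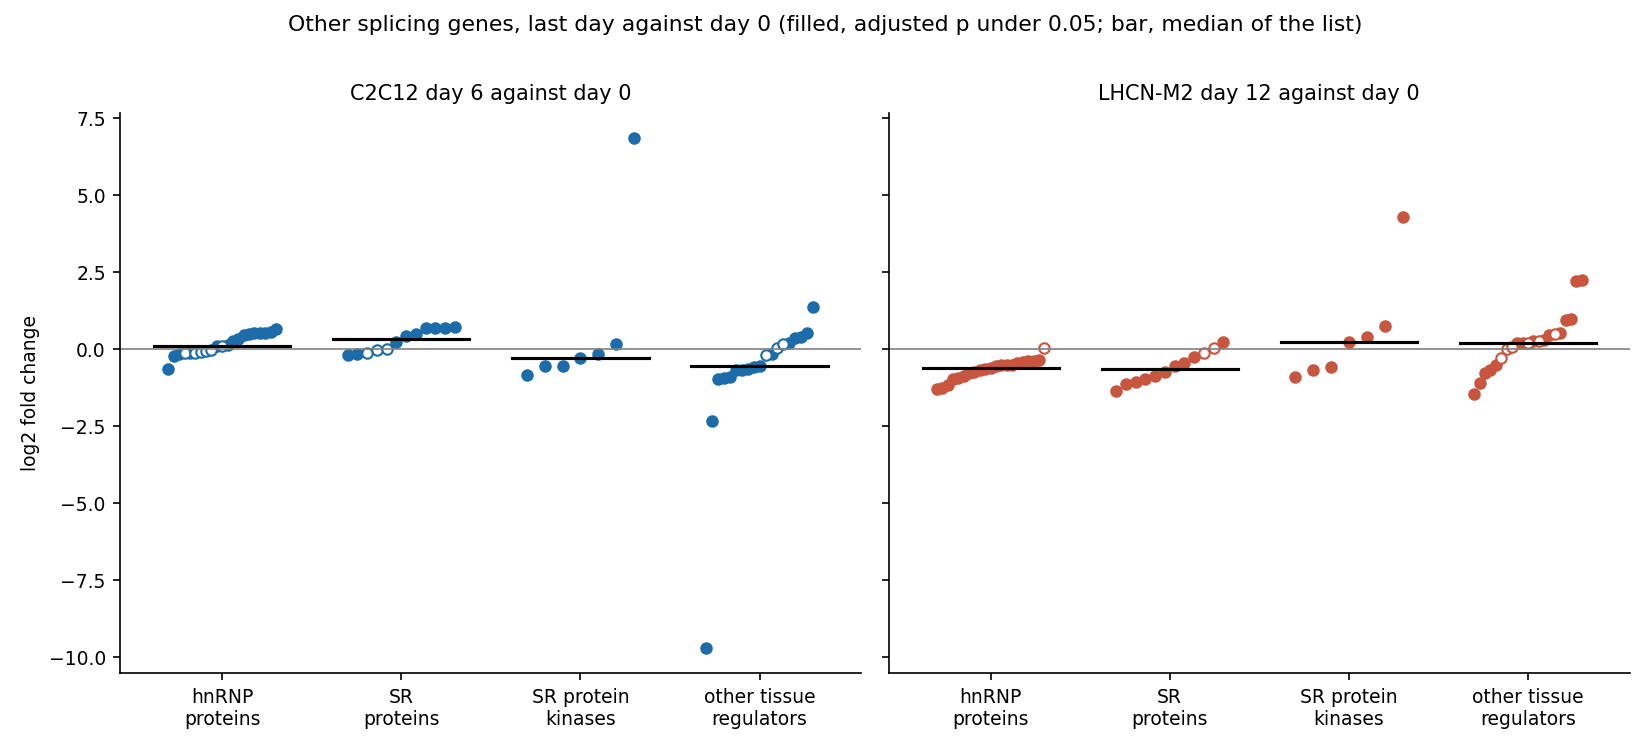
Log2 fold change of each tested gene of 4 other lists, last day against day 0, in C2C12 (left) and LHCN-M2 (right); filled points passed an adjusted p of 0.05 and bars are list medians. The hnRNP and SR medians lie below 0 in LHCN-M2 (-0.62 and -0.64) and above 0 in C2C12 (0.12 and 0.35).

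Among 27 further tissue splicing regulators, 19 were tested in C2C12 and 21 in LHCN-M2. In LHCN-M2 on day 12, 10 were higher and 5 lower (all genes 27.1% and 27.5%). RBM20, the titin splicing factor of heart and muscle, rose by 2.21 on the log2 scale (from 2.04 to 9.43 CPM, SE 0.18, adjusted p = 7.76e-08), and ELAVL2 rose from 4.53 to 21.5 CPM (2.25, SE 0.16, adjusted p = 1.62e-08). In C2C12 on day 6, 5 were higher and 11 lower (all genes 33.1% and 32.5%). Rbm20, chosen for this comparison after its values were seen, fell from 61.2 to 38.4 CPM (-0.67, SE 0.083, adjusted p = 4.00e-07), the opposite direction to RBM20 in LHCN-M2; it stood at 76.0 CPM on day 1 (day 6 against day 1 -0.98, adjusted p = 1.51e-09). Khdrbs3 rose from 8.57 to 22.1 CPM (1.37, SE 0.12, adjusted p = 3.66e-09), Nova2 fell from 0.995 to 0.195 CPM (-2.32, SE 0.47, adjusted p = 0.000185), and Elavl2 fell from 13.5 to 0.012 CPM (adjusted p = 3.22e-16). On day 6 the means of Nova2 and Elavl2 lay below the filter level of about 0.257 CPM, so their p-values are descriptions.

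The closest relatives of the 10 genes were mostly low. Of 7, 5 were tested in C2C12, with 2 higher and 2 lower on day 6 than on day 0 (all genes 33.1% and 32.5%), and 2 in LHCN-M2. In C2C12 on day 6, Celf5 fell by 2.60 on the log2 scale (4.68 to 0.774 CPM, SE 0.29, adjusted p = 9.99e-08) and Celf4 rose from 5.11 to 8.99 CPM (0.81, SE 0.15, adjusted p = 0.000101). Celf3 was lower, at 0.245 against 0.694 CPM (-1.49, SE 0.60, adjusted p = 0.0352), but not without replicate 4 of day 0 (-0.84, adjusted p = 0.243). Its day 6 mean also lay below the filter level of about 0.257 CPM, so its p-values are descriptions. In LHCN-M2 on day 12, PTBP3 and RBM38 were not called.

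Genes known to carry exons regulated in muscle were mostly higher at the last day, 19 of 28 in C2C12 with 4 lower and 23 of 27 in LHCN-M2 with 3 lower. Of all genes, 33.1% and 27.1% were higher and 32.5% and 27.5% lower, in the same order. The lists' medians were 0.62 and 1.81. Tnnt1, slow troponin T, went from 0.952 to 86.4 CPM in C2C12 (log2 fold change 6.50, SE 0.12, adjusted p = 5.35e-20). TNNT2, cardiac troponin T and a CELF and MBNL target, rose from 11.9 to 873.5 CPM over the first day in LHCN-M2 (6.20, SE 0.21, adjusted p = 5.38e-12). These counts sum all isoforms of a gene and give no measure of exon use.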

How the data were processed

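RNA-seq of 24 libraries, 12 per line, was used as gene counts. Per the submitters' processing notes, the tools were featureCounts 2.0.6, StringTie 2.2.3, HISAT2 2.2.1 and fastp, and the builds mm10 and hg38. The authors deposited raw counts per gene, one table per line, with gene length. Annotation release and strand setting: not given in the sources used here. Thus reads of overlapping genes cannot be told apart, and no mouse coordinates are taken from the tables. Whether a sequenced fragment was amplified more than once is unknown, so intervals cover counting error only.

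Counts were tested per line with the quasi-likelihood test of edgeR 4.0.16 (R 4.3.3), with filterByExpr (minimum count 10), TMM scaling and 1 coefficient per day over all 12 libraries. P-values were adjusted over all tested genes (Benjamini-Hochberg, threshold 0.05). Differences between the lines were tested as interactions over 24 libraries and 10953 shared symbols. CPM use TMM-scaled totals. Ratios within families (per kb, pseudocount 0.5 counts) were tested with two-sided exact permutation tests. The filter asked for about 0.257 CPM in C2C12 and 0.246 in LHCN-M2 in at least the number of libraries of a group. Replicate libraries differed by more than sampling noise, with chi-square per degree of freedom of 6.83 or more in C2C12 and 6.32 or more in LHCN-M2, so none was counted as a duplicate. The code was tested on simulated counts. Promoter windows came from RefSeq (GRCm38.p6), which matched 9 of the 10 genes.

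All 10 genes were named. Of each other list, at most the 3 called genes with the largest absolute change per line, against day 0, were named with values; for each of the 10 genes, the 3 with the most similar pattern could be named. Genes named only because few were called, or because they were an exception, were chosen after their values were seen. The 10 genes and the lists were chosen with earlier results of these data known. Alternatives were RLE or no scaling, DESeq2 1.42.0, other filters, a replicate block, fits of only the compared groups, other pseudocounts and leaving out each library.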

Additional observations from a re-analysis of the deposited data

Results flagged for a closer look

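In 4 of 60 groups of 4 libraries, 1 library lay far from the others, where chance flags about 1 group in 20. Mbnl3 was 7.12 CPM in C2C12 day 0 replicate 1, below 12.2 to 13.2 in the others. Rbm24 was 0.360 CPM in C2C12 day 1 replicate 4, which is 14 counts against 8 in each of the others. MBNL2 was 20.5 CPM in LHCN-M2 day 0 replicate 2, below 31.7 to 33.4, and CELF1 was 85.3 CPM in LHCN-M2 day 12 replicate 1, below 108.7 to 110.6. The last 2 libraries are the pair that stood apart on the third principal component.

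The change differed between the lines, by the interaction test, in 19 of 30 comparisons, given here as the log2 fold change in LHCN-M2 minus that in C2C12. Over the first day it was 2.71 for RBFOX1, 0.57 for RBFOX2, -0.34 for MBNL1, 1.17 for MBNL2, -1.30 for MBNL3 and -0.91 for PTBP1. To the last day from day 0 it was 2.76 for RBFOX1, -0.97 for MBNL1, 1.16 for MBNL2, -1.70 for MBNL3, -1.61 for PTBP1, 0.65 for PTBP2 and -5.65 for RBM24. From day 1 to the last day it was -0.37 for RBFOX2, -0.63 for MBNL1, -0.48 for CELF2, -0.70 for PTBP1, 0.67 for PTBP2 and -4.78 for RBM24. RBFOX1 lost both calls without C2C12 day 0 replicate 1 (1.75, adjusted p = 0.163, and 1.81, adjusted p = 0.117); its first-day difference was 3.46 (adjusted p = 0.00132) without C2C12 day 1 replicate 1. The last-day difference of RBM24 from day 0 was -6.26 (adjusted p = 8.25e-14) without C2C12 day 0 replicate 2. The p-values of RBM24 and RBFOX1 to the last day are descriptions. In C2C12 both genes passed the filter only through day 6. RBFOX2 from day 1 lost its call without C2C12 day 1 replicate 1 (adjusted p = 0.0518), C2C12 day 6 replicate 1 (0.0517), LHCN-M2 day 1 replicate 3 (0.0528) or LHCN-M2 day 12 replicate 1 (-0.29, adjusted p = 0.0701). RBM24 over the first day, not called with all libraries (-0.87, adjusted p = 0.124), was called without C2C12 day 0 replicate 2 (-1.49, adjusted p = 0.0304). Of all shared symbols, 59.2%, 70.7% and 56.2% differed between the lines in these comparisons.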

How the results depend on the processing

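Of 49 called fold changes of the 10 genes within a line, 46 kept their direction and call under every alternative run, as did 16 of 19 called differences between the lines. With library totals only, 2 genes were lower in C2C12 at day 6 than at day 0, since Ptbp2 (-0.15) passed, and Ptbp1 from day 1 to day 6 was -0.015. From day 1 to day 12 in LHCN-M2, MBNL1 was 0.00094 with RLE factors, 0.00090 with DESeq2 and 0.017 without the pair of libraries that stood apart, an alternative chosen after seeing the data. Differences between the lines that were not called also changed sign. For CELF1 to the last day from day 0 they were -0.016 with TMM over all 24 libraries, -0.043 with no filter and -0.015 without the pair; over the first day they were -0.011 with no filter and -0.079 without the pair; from day 1 it was 0.064 without the pair. MBNL2 from day 1 was 0.022 without the pair, and RBFOX1 from day 1 was -0.014 with TMM over all 24 libraries. The cause of these changes was not tested.

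Same-numbered libraries of different days had correlations of deviations between -0.051 and 0.039 in C2C12 and between -0.10 and 0.091 in LHCN-M2. These values show no strong pairing by replicate number. They cannot tell whether a number marks a shared culture or batch. With the replicate block, no count of called genes among the 10 changed, the RBFOX1 difference from day 1 was -0.00073, and Celf3 lost its call (adjusted p = 0.0789). In the sign-flip form of the block 0 of the 22 ratio calls passed, and 0 passed without any 1 replicate number, because these tests cannot reach the threshold.

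Leaving out 1 library moved values that were not called across 0. Rbfox1 over the first day in C2C12 ran from -0.47 to 1.21, and MBNL1 from day 1 to day 12 in LHCN-M2 from -0.064 to 0.017. Ptbp1 from day 1 to day 6 ran from -0.047 to 0.025. Its value with all libraries, 0.044, lay outside that range, and the cause was not tested. Between the lines, CELF1 ran from -0.079 to 0.14 over the first day, from -0.097 to 0.13 to the last day from day 0 and from -0.061 to 0.064 from day 1; PTBP2 ran from -0.10 to 0.055 over the first day, RBFOX1 from -0.72 to 0.34 and MBNL2 from -0.040 to 0.033 from day 1. The log2 ratio of Rbfox1 to Rbfox2 over the first day in C2C12 ran from -0.16 to 0.43 and that of Mbnl3 to Mbnl1 to day 6 from -0.075 to 0.33. Depth limits Rbm24 and Rbfox1 in C2C12 before day 6, at 22 counts or fewer per library.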
